A study of Homo sapiens with 24 samples.

Results

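The genes described here encode the chains of collagens and laminins, which build the extracellular matrix, and the subunits of integrins, the receptors that bind it. They were followed in R-2A (HiPS-RIKEN-2A) hiPSCs during monolayer neural induction. Members were found by gene symbol in the annotation of the array: symbols of the form COL, number, A, number for collagens, LAMA, LAMB or LAMC with a number for laminins, and ITGA or ITGB with a number or letter for integrins. Of 33616 genes with a symbol of their own, 74 matched, namely 41 collagen, 8 laminin and 25 integrin genes. Of these, 8 had several transcript clusters (the array's unit of measurement), and the brightest of them (by its mean over the 24 arrays) was used. *COL3A1*, *COL7A1*, *LAMA5*, *LAMB3* and *ITGA1* share their cluster with another symbol and *COL17A1* and *LAMA3* were not found by the rule, so these genes were not analysed here.

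The study compared cells carrying a lentiviral shRNA against *ROR2*, a receptor of the noncanonical WNT pathway (*ROR2* KD cells), with cells carrying a control shRNA (sh-C, control cells). Both were selected with puromycin and, until induction, kept in StemFit AK02 on iMatrix-511, a recombinant laminin fragment. For the induction they were moved to plates coated with Matrigel, a basement membrane extract rich in laminin and type IV collagen, so that the coating and the medium changed between day 0 and day 7 in both lines and cannot be told apart from the days of that step. Total RNA was taken before induction (day 0) and on days 7, 14 and 21 of culture with the STEMdiff SMADi Neural Induction Kit, with passages every 7 days. Each line and day had 3 biological replicates. Whether these came from separate transductions is not given in the labels, so p-values measure the spread between replicates, and any other difference between both lines cannot be told apart from the shRNA.

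The 24 arrays had medians of 4.26 to 4.51 on the log2 scale, and arrays of a group correlated at 0.963 to 0.987. *ROR2* itself was lower in *ROR2* KD cells by 2.51 (log2; standard error 0.26, limma adjusted p = 0.000165) on day 0, by 2.62 on day 7 and by 2.56 on day 14. On day 21 its level was 3.57 ± 0.17 against 4.45 ± 0.20 (SD, n = 3), a difference that was not called (adjusted p = 0.0823). As a background level, the signal that 95% of the 23 background probe sets of an array stay under was used, which lay between 7.30 and 9.97. The *ROR2* levels of day 21 lay under it in both lines, so the size of that difference is limited by background signal. Of the members, 5 lay above it on every array (*COL6A1*, *ITGA6*, *ITGB1*, *LAMA1* and *LAMC1*), 51 on no array and 18 on some. A fold change of a gene under that level can be set in part by background signal. Levels below are log2 signals with the SD over 3 arrays, and they are compared between samples but not between genes, since each gene has its own probes.

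Collagens are trimers. Fibrillar types I, II, V and XI form fibres, type IX sits on the surface of type II fibrils, type VI forms beaded filaments, and type IV forms the sheet of the basement membrane. Laminins are heterotrimers of an alpha, a beta and a gamma chain that start basement membrane assembly. In the early neural tube, laminin with the alpha1, beta1 and gamma1 chains lines the basal side of the neuroepithelium. Integrins are alpha-beta heterodimers: the beta1 chain pairs with many alpha chains, alpha6 beta1 binds laminin, alpha2 beta1 binds collagen, alpha5 beta1 binds fibronectin, and alphaV pairs with beta1, beta3, beta5, beta6 or beta8.

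A difference was called at a Benjamini-Hochberg adjusted p under 0.05 in limma, over all 135750 transcript clusters, and a fold change above 2. From day 0 to day 7, 14 members rose and 14 fell in control cells. This is 18.9% in each direction, against 10.2% of all genes with their own symbol that rose and 17.4% that fell. In *ROR2* KD cells 14 members rose (18.9% against 10.9% of all genes) and 12 fell (16.2% against 14.8%). From day 7 to 14, 5 rose (6.76% against 3.97%) and 8 fell (10.8% against 3.1%) in control cells. Over these days, *ROR2* KD cells had 6 that rose (8.11% against 5.16%) and 13 that fell (17.6% against 3.73%). The last step was mostly downward. From day 14 to 21, 2 members rose in control cells (2.7% against 2.64%) and 1 in *ROR2* KD cells (1.35% against 3.21%), while 21 fell in each line, 28.4% of the members against 4.69% of all genes in control and 5.75% in *ROR2* KD cells. The median change of all 74 members over that step was -0.18 in control and -0.16 in *ROR2* KD cells, against -0.02 and -0.01 for all genes. Many of these calls lay under background on all 6 arrays compared. By day 7 these were 12 of 28 calls in control and 13 of 26 in *ROR2* KD cells. From day 7 to 14 they were 5 of 13 and 7 of 19, and from day 14 to 21 11 of 23 and 8 of 22. The matching share over all genes was not counted.

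**Figure D1:**
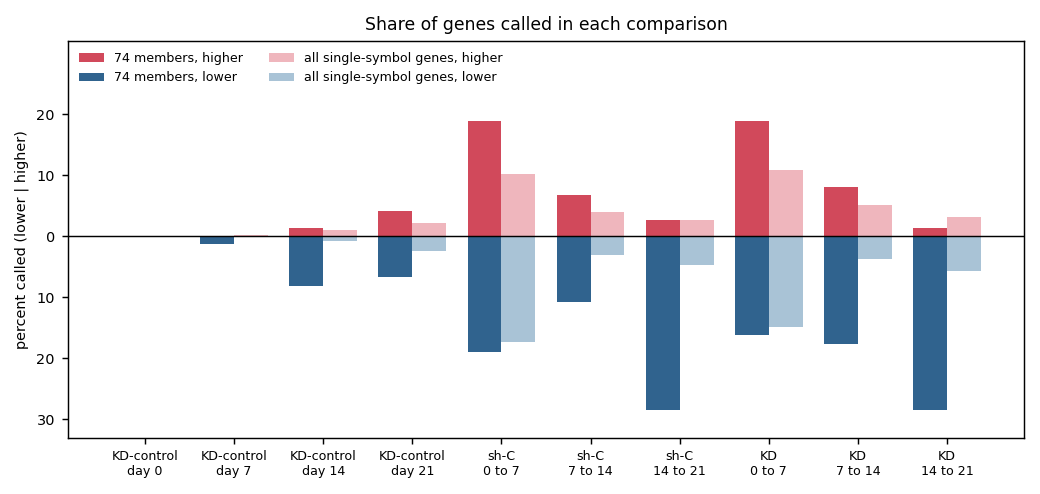
Percent of the 74 collagen, laminin and integrin genes (strong red and blue) and of all 33616 genes with their own symbol (pale red and blue) that were called higher (upward) or lower (downward) in each comparison. The widest gap between strong and pale bars is that of the genes lower on day 21 than on day 14, 28.4% of the members in both lines. Calls under background are included.

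The rises by day 7 and the falls after day 14 were mostly of the same genes in both lines. The matching shares over all genes were not counted, so the counts of this paragraph describe the members only. Of the members that rose by day 7, 13 did so in both, which is 92.9% of each list. Of those that fell between days 14 and 21, 18 did so in both (85.7% of each list). Of those that fell by day 7, 7 were shared (50% of the control list and 58.3% of the *ROR2* KD list). A set of 11 genes rose by day 7 and fell after day 14 in both lines. These were the collagens *COL2A1*, *COL4A2*, *COL4A5*, *COL4A6*, *COL9A1*, *COL11A1* and *COL27A1*, the laminin chains *LAMA1* and *LAMB1*, and the integrin subunits *ITGA5* and *ITGA7*. Of these, *ITGA7* lay under background on every array, and *COL27A1* was above it on 2 arrays only. At the other end, 30 members were called in no comparison, among them *COL1A1*, *COL4A3*, *COL4A4*, *LAMA2*, *LAMB2* and the leukocyte subunits *ITGAL*, *ITGAM*, *ITGAX* and *ITGB2*.

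**Figure D2:**
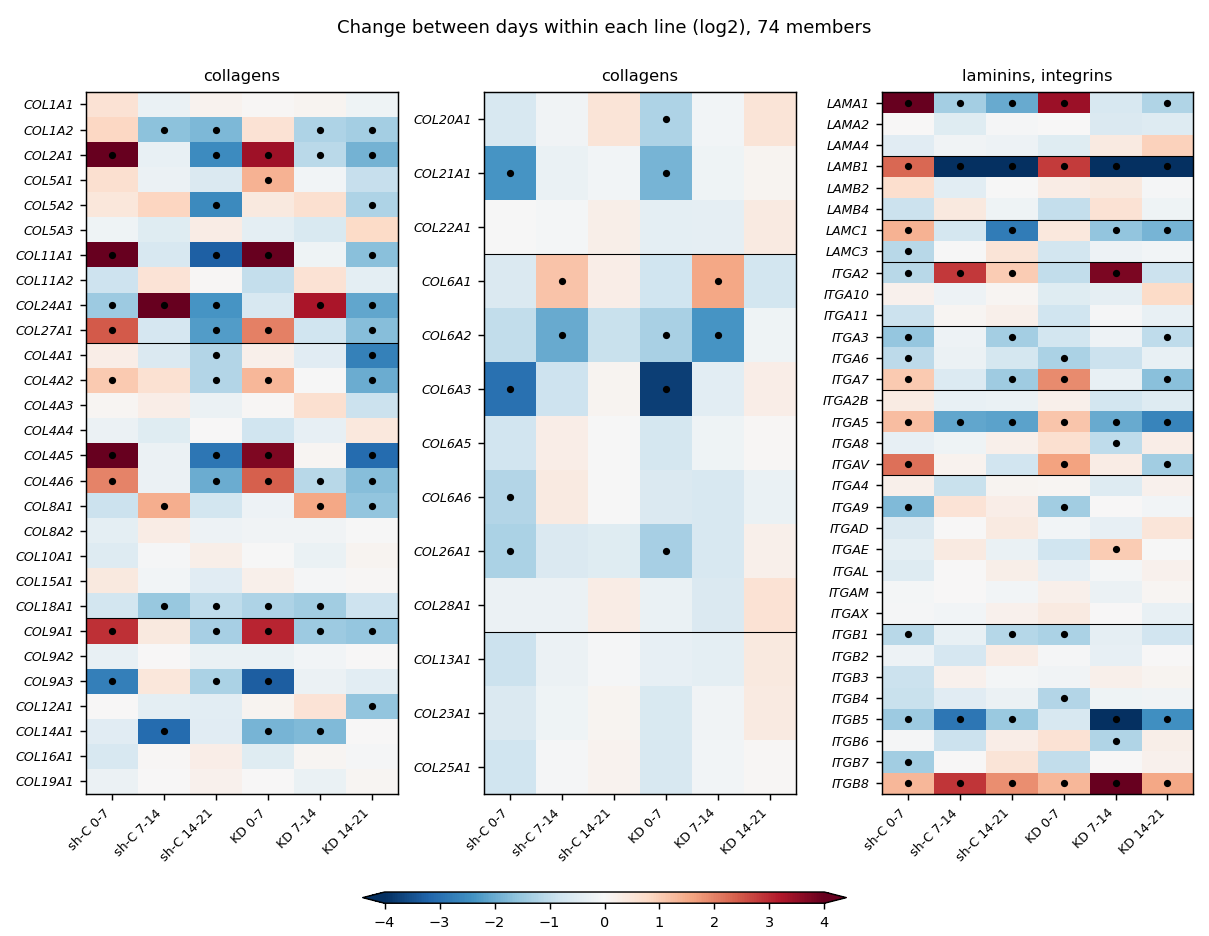
Log2 change of every member from one day to the next in control (sh-C) and *ROR2* KD (KD) cells. Red is a rise and blue a fall, colours end at 4 and -4, dots mark called changes, and lines separate the families. *LAMB1* and *ITGB5* are blue and *ITGB8* red in the middle and last steps of both lines.

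Markers of cell types changed over the same days. The mean log2 level of 5 measured neuron markers lay between 8.06 and 8.37 on the control arrays of day 0 and between 14.91 and 15.15 on day 21. That of 5 measured pluripotent markers lay between 16.53 and 16.64 on the control arrays of day 0 and between 10.81 and 10.95 on day 7, and all 5 fell (17.4% of all genes did). The 6 neural progenitor markers lay at up to 9.24 and then between 12.65 and 12.79, and 4 rose (10.2% of all genes did). The level of 6 epithelial markers lay between 14.96 and 15.22 on day 0 and between 4.91 and 5.39 on day 21. The neuron markers of *ROR2* KD cells lay between 7.83 and 8.29 on day 0 and between 15.72 and 15.86 on day 21. All 5 neuron markers were above background on every array of day 21. Of 7 measured markers of mesenchyme or meninges, at most 1 lay above background on any array, of 4 leukocyte markers 0, and of 4 cartilage markers at most 1, with aggrecan (*ACAN*) under background on all 24 arrays. The part of a change in cell types in the results below was not tested, and in such bulk samples fewer cells of a type and less RNA per cell cannot be told apart.

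The chains of the neuroepithelial laminin were at their highest on day 7. *LAMA1*, the alpha1 chain, read 11.37, 10.99 and 10.81 on the control arrays of day 0 and 15.09, 15.34 and 15.25 on day 7. It rose by 4.17 (18.0-fold, standard error 0.24, adjusted p = 3.9e-12) in control and by 3.41 (10.6-fold) in *ROR2* KD cells. It fell at both later steps in control cells, to 11.84 ± 0.12 on day 21 (day 0, 11.06 ± 0.28). In *ROR2* KD cells it fell between days 14 and 21, to 12.51 ± 0.47, with every array above those of control cells (0.67, adjusted p = 0.211, not called). *LAMB1*, the beta1 chain, had the largest fall of a member between successive days. In control cells it went from 13.90 ± 0.14 on day 7 to 9.69 ± 0.10 on day 14 and to 4.76, 6.01 and 4.19 on day 21. In *ROR2* KD cells it read 14.05 ± 0.16, then 8.52 ± 0.16, then 4.78, 3.83 and 4.88. These arrays of day 21 were all under background, and below every array of day 14. The steps from day 7 to 14 were -4.21 in control (adjusted p = 4.15e-09) and -5.53 in *ROR2* KD cells (adjusted p = 2.5e-11).

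*LAMC1* encodes the gamma1 chain, which most laminins share, and it was the laminin gene called between the lines on day 14. On day 14 it read 14.31, 14.14 and 14.17 in control and 12.56, 12.43 and 12.28 in *ROR2* KD cells, without overlap and all above background. The difference was -1.79 (3.45-fold; standard error 0.20, adjusted p = 7.98e-06). On day 7 the control arrays (15.10, 15.05 and 14.62) were also above the *ROR2* KD arrays (13.99 ± 0.01), but the difference of -0.94 was less than 2-fold (adjusted p = 0.046), as was that of -0.85 on day 21 (adjusted p = 0.0173). The difference of the contrast between days 7 and 14 was not called (-0.85, standard error 0.28, adjusted p = 0.402). *LAMC1* rose by 1.40 from day 0 to 7 in control cells, and its change in *ROR2* KD cells was 0.43 (adjusted p = 0.124). Its partner chains did not pass the thresholds between the lines: on day 14 *LAMB1* differed by -1.17 (standard error 0.32, adjusted p = 0.14) with arrays that did not overlap, and *LAMA1* by -0.14.

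Other laminin chains were dim. *LAMA4*, the alpha4 chain, known from vessel and nerve basement membranes, was called higher in *ROR2* KD cells on day 21, with 6.19, 6.13 and 6.16 against 4.75, 5.07 and 4.70 in control (1.32, standard error 0.21, adjusted p = 0.00038). All 6 arrays lay under background. On the same day the endothelial marker *TEK* was higher in *ROR2* KD cells by 1.29 and the mesenchymal marker *LUM* by 3.29, and the other 5 of 6 endothelial and 6 of 7 mesenchymal markers were not called. On the arrays of that day, 0 of the 7 mesenchymal markers lay above background. Of the 6 endothelial markers, 0 did so on control arrays and at most 1 on *ROR2* KD arrays. The part of such cells in the difference was not tested. *LAMA2* and *LAMB2*, chains of muscle and synaptic laminins, kept levels between 5.99 and 7.38 in all groups and were not called in any comparison.

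**Figure D3:**
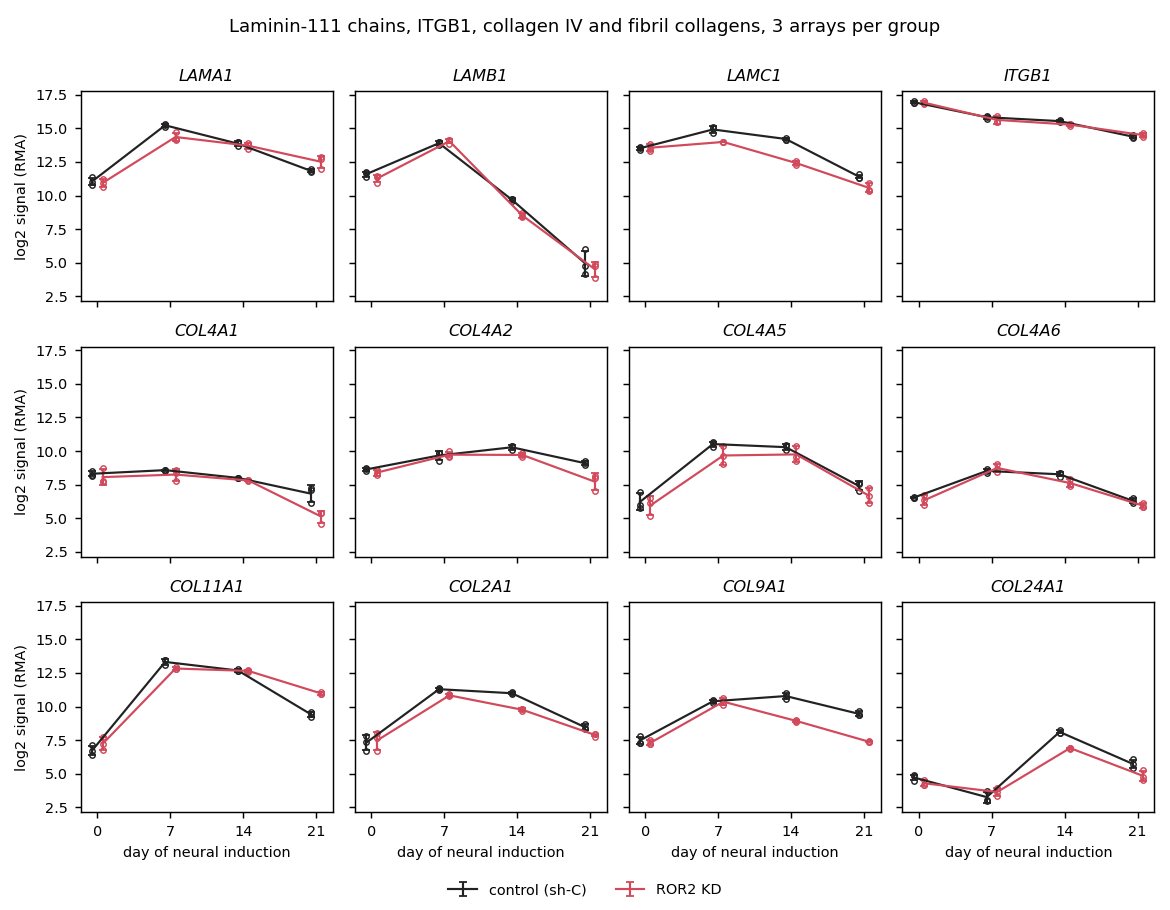
Log2 signal of 12 members by day in control (black) and *ROR2* KD cells (red). Circles are single arrays, and lines join the means with the SD over 3 arrays as bars. *LAMB1* drops from about the same level in both lines on day 7, *LAMC1* separates the lines on day 14, *COL9A1* separates them on days 14 and 21, and *COL11A1* is higher in *ROR2* KD cells on day 21.

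Type IV collagen has 6 genes, arranged in pairs that start head to head and are read in opposite directions. In the RefSeq promoter windows (GRCh38.p14, from 250 bases before to 50 after the start) the starts of *COL4A1* and *COL4A2* lie 127 bases apart, those of *COL4A5* and *COL4A6* 380 bases and those of *COL4A3* and *COL4A4* 419 bases apart. The *COL4A4* window, however, belongs to a start inside the gene, whose RefSeq span ends at 227164488 (minus strand). *COL4A3* begins at 227164624, so the outermost starts of this pair lie closer together. The windows of *COL4A2* and *COL4A5* are shown because each covers the DNA between the starts of a pair that changed, or most of it, and the pairs differ in it. The *COL4A2* window (chr13:110307034-110307333, plus strand) and that of *COL4A1* have 226 bases in common, and the *COL4A5* window (chrX:108439588-108439887, plus strand) shares 121 with that of *COL4A6*. Capitals mark the letters CCAAT (or ATTGG) and GGGCGG (or CCGCCC), searched on both strands:
COL4A2: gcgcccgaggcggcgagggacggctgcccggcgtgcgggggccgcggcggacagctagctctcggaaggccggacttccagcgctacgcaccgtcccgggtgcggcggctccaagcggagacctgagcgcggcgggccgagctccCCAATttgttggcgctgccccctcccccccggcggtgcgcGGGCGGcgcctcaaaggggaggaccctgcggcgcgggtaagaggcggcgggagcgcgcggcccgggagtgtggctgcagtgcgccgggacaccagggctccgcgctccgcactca
COL4A5: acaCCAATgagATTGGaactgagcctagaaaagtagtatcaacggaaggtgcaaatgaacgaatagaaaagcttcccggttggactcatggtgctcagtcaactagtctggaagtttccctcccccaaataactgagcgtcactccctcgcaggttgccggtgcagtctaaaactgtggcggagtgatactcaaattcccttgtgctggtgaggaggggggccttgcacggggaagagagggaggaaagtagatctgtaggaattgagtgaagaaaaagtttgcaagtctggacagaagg
The *COL4A2* window holds 1 CCAAT and 1 GGGCGG and is 77.7% G and C. The *COL4A5* window holds 2 CCAAT and 0 GGGCGG and is 49.3% G and C. Of the partners, *COL4A1* has 1 and 2 of these letters, and *COL4A6* has 3 and 0. *COL4A3* has 0 and 2, and *COL4A4* has 0 and 0. None of the 6 windows holds TATAAA. Of 35116 windows of the same length, 34.6% hold CCAAT, 45% GGGCGG and 11.5% TATAAA. The matches are a description of these letters only.

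The pairs followed different courses. *COL4A5* and *COL4A6* encode the alpha5 and alpha6 chains. *COL4A5* read 6.94, 5.99 and 5.73 on day 0 and 10.66, 10.60 and 10.31 on day 7 in control cells, a rise of 4.30 (19.7-fold, standard error 0.39, adjusted p = 9.18e-09). The arrays of days 0 and 21 lay under background in both lines for *COL4A5* and *COL4A6*, so the sizes of these changes are limited by it. In *ROR2* KD cells it went from 5.95 ± 0.68 to 9.67 ± 0.70. *COL4A6* rose by 1.98 in control and 2.40 in *ROR2* KD cells. Between days 14 and 21 both fell in both lines, *COL4A5* by 2.88 and 3.08 and *COL4A6* by 1.97 and 1.69. Neither gene was called between the lines on any day. On day 7 *COL4A5* differed by -0.85 (standard error 0.39, adjusted p = 0.427) and *COL4A6* by 0.21.

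*COL4A1* and *COL4A2* encode the common alpha1 and alpha2 chains, and they changed less by day 7 (*COL4A2* rose by 1.05 and 1.34, *COL4A1* was not called). They separated the lines on day 21. *COL4A2* read 8.95, 9.24 and 9.12 in control and 8.15, 6.99 and 7.98 in *ROR2* KD cells, and *COL4A1* read 7.26, 6.10 and 7.12 against 5.38, 5.38 and 4.60. All *ROR2* KD arrays were below all control arrays. The differences were -1.39 (standard error 0.25, adjusted p = 0.00131) and -1.70 (standard error 0.30, adjusted p = 0.00126). The 6 *COL4A1* arrays lay under background, and *COL4A2* was above it on 3 control arrays and 1 *ROR2* KD array. Fitted on the 6 arrays of the day alone, neither passed (adjusted p = 0.125 for *COL4A2* and 0.0935 for *COL4A1*), and neither did by the methods' t-test (0.43 and 0.427). The difference of the contrast between days 14 and 21 was not called for either gene (-1.51, adjusted p = 0.207 for *COL4A1*). *COL4A3* and *COL4A4*, whose chains are known from the kidney and inner ear, had group means of 3.51 to 5.94 and were called in no comparison.

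A second group of collagens combines in cartilage and in the vitreous of the eye: *COL2A1*, *COL9A1* and *COL11A1*. *COL11A1*, a chain of fibrillar type XI, had the largest rise of all members. It read 6.43, 7.10 and 6.70 in control cells on day 0 and 13.45, 13.46 and 13.06 on day 7 (6.58, 95.5-fold, standard error 0.22, adjusted p = 3.78e-16). Its rise in *ROR2* KD cells was 5.60 (48.4-fold). Day 0 was under background in both lines. *COL2A1*, the chain of type II, rose by 3.99 (15.9-fold) in control and 3.38 (10.4-fold) in *ROR2* KD cells. *COL9A1* rose by 2.91 and 3.06. The other type IX chains showed no such rise: *COL9A2* stayed between 3.04 and 3.58 in all groups, and *COL9A3* fell by 2.75 and 3.31 over the same days. Both lay under background on all arrays, where a change can be hidden by background signal. Of the cartilage markers, only *SOX9*, which is also expressed in neural progenitors, lay above background. It differed by -1.15 between the lines on day 21 (adjusted p = 0.0118).

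Between the lines, this group did not move in 1 direction. *COL9A1* read 10.30, 10.48 and 10.38 in control and 10.13, 10.36 and 10.60 in *ROR2* KD cells on day 7. On day 14 it read 10.75, 10.59 and 10.99 against 8.93, 8.98 and 8.87, and on day 21 9.67, 9.34 and 9.37 against 7.37, 7.35 and 7.41. The arrays overlapped on day 7 and were apart by more than 1 log2 unit afterwards. The differences were -1.85 (3.61-fold; standard error 0.19, adjusted p = 2.46e-06) and -2.08 (4.24-fold; adjusted p = 1.23e-07), and that of day 14 was lower than that of day 7 by 1.83 (adjusted p = 0.000962). *COL2A1* was already without overlap on day 7, with 11.29, 11.20 and 11.39 in control and 10.93, 10.75 and 10.83 in *ROR2* KD cells (-0.46, adjusted p = 0.569, not called). It read 10.90, 10.98 and 11.08 against 9.83, 9.82 and 9.65 on day 14 (-1.22, standard error 0.27, adjusted p = 0.0277), and the call was lost when any single array of that day was left out (adjusted p up to 0.159). On day 21 it differed by -0.59 (adjusted p = 0.42).

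*COL11A1* was higher in *ROR2* KD cells on day 21. On day 7 its values were lower in *ROR2* KD cells, with 12.79, 12.76 and 12.94 against 13.45, 13.46 and 13.06, which was not called (-0.49, adjusted p = 0.417). It read 12.63, 12.77 and 12.65 in control and 12.58, 12.72 and 12.64 in *ROR2* KD cells on day 14. On day 21 it read 9.48, 9.58 and 9.19 against 11.07, 10.93 and 10.91. The lines thus overlapped on day 14 and stood apart on day 21, where *ROR2* KD cells were higher by 1.55 (2.94-fold; standard error 0.22, adjusted p = 0.000102). The difference of the contrast between these days was 1.59 (adjusted p = 0.0143). It was not called without the control arrays of day 14 replicate 2 or day 21 replicate 3 (adjusted p up to 0.0579).

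*COL24A1*, a fibrillar collagen known from developing bone, peaked on day 14 under the background level. In control cells it went from 3.26 ± 0.41 on day 7 to 8.03, 8.06 and 8.24 on day 14 (4.85, adjusted p = 2.54e-12), and it fell to 5.74 ± 0.31 on day 21. It reached 6.95, 6.86 and 6.91 on day 14 in *ROR2* KD cells, below every control array (-1.20, standard error 0.24, adjusted p = 0.012). This call was lost without control replicate 3 or *ROR2* KD replicate 2 or 3 of that day (adjusted p up to 0.0797).

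No chain of type VI or type I collagen was called between the lines, and over time these chains took different courses. *COL6A1* was above background on all arrays and rose between days 7 and 14, from 9.59 ± 0.17 to 10.73 ± 0.10 in control (1.14) and from 9.52 ± 0.37 to 11.07 ± 0.22 in *ROR2* KD cells (1.54). Over the same step *COL6A2* fell by 2.02 and 2.36, and *COL6A3* had fallen before, from 6.87 ± 0.44 on day 0 to 3.88 ± 0.26 on day 7 (control) and from 6.93 ± 0.55 to 3.17 ± 0.05 in *ROR2* KD cells. *COL6A2* and *COL6A3* lay under background on all arrays. The 2 further clusters of *COL6A2* were called in no comparison. On the mean of its clusters its fall in *ROR2* KD cells was -0.73, less than 2-fold (limma adjusted p = 0.00545). By the methods' t-test the fall of 2.36 in *ROR2* KD cells was not called (adjusted p = 0.0714). *COL1A1* kept a level between 8.25 and 8.84. *COL1A2* fell from 10.53 ± 0.34 on day 7 to 7.10 ± 0.74 on day 21 (control) and from 10.35 ± 0.29 to 7.77 ± 0.39 in *ROR2* KD cells, with both steps called in each line.

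Of the fibril-associated collagens, *COL21A1* fell by 2.35 and 1.87 by day 7, under background. *COL14A1*, which binds collagen fibrils in tendon and skin, was the 1 member called between the lines on day 7, 1.35% of the members against 0.164% of all genes that were lower (0.113% were higher). It read 7.69, 7.77 and 7.61 in control and 6.36, 5.97 and 5.62 in *ROR2* KD cells, all under background and without overlap (-1.71, standard error 0.26, adjusted p = 0.0023). In control cells it fell after day 7 (by 3.07 to day 14), and in *ROR2* KD cells it fell by 1.86 before day 7 and by 1.78 to day 14. On days 14 and 21 the lines overlapped. The call was lost in the fit of the 6 arrays of the day (adjusted p up to 0.457 over the alternatives). On the same day the epithelial markers *EPCAM* and *ESRP1* were lower in *ROR2* KD cells by 1.67 and 2.97, and the mean log2 level of all 6 was 8.16 to 8.98 on *ROR2* KD and 9.34 to 9.52 on control arrays. Their part in the difference was not tested.

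Among the integrin subunits, a pair of beta chains that both join alphaV moved in opposite directions. *ITGB5* read 12.37, 12.51 and 12.39 in control cells on day 0 and 6.58, 6.46 and 6.70 on day 21. *ITGB8* read 8.80, 8.25 and 8.42 on day 0 and 14.61, 14.45 and 14.58 on day 21. Each was called at every step in control cells, *ITGB5* falling by 1.46, 2.90 and 1.48 and *ITGB8* rising by 1.32, 2.86 and 1.87. Alpha V beta5 binds vitronectin. Alpha V beta8 is known for the activation of latent TGF-beta, and in the brain it is found on neuroepithelial and glial cells. *ITGAV* itself rose by 2.19 by day 7 in control and by 1.60 in *ROR2* KD cells, and it fell by 1.40 between days 14 and 21 in *ROR2* KD cells (control -0.77, less than 2-fold).

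In *ROR2* KD cells *ITGB5* changed by -0.63 by day 7 (adjusted p = 0.0612, not called) and fell by 4.82 and 2.44 at the later steps, and *ITGB8* rose by 1.32, 4.47 and 1.56. The steps of both genes from day 7 to 14 were thus wider than those of control cells. On day 7 *ITGB5* read 11.68, 11.11 and 11.36 in *ROR2* KD and 10.74, 11.11 and 11.04 in control cells. On day 14 it read 6.79, 6.19 and 6.71 against 8.18, 8.24 and 7.77, and on day 21 4.48, 3.51 and 4.39 against 6.58, 6.46 and 6.70. All *ROR2* KD arrays were lower on the last pair of days, on which all 12 arrays lay under background. The differences were -1.50 (2.82-fold; standard error 0.24, adjusted p = 0.00114) and -2.45 (5.48-fold; adjusted p = 3.93e-07). *ITGB8* read 9.70, 9.65 and 9.71 against 9.93, 10.07 and 9.43 on day 7, then 14.01, 14.16 and 14.31 against 12.65, 12.62 and 12.76 on day 14, and 15.84, 15.52 and 15.80 against 14.61, 14.45 and 14.58 on day 21. From day 14 on, every *ROR2* KD array was above every control array, all of them above background. The differences were 1.48 (standard error 0.21, adjusted p = 0.000277) and 1.17 (adjusted p = 0.00162). On day 21 the call of *ITGB8* was lost in the fit of that day's arrays alone (adjusted p = 0.0542; up to 0.103 over the alternatives).

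The difference between the lines itself changed between successive days for 0 members from day 0 to 7 (0.0744% of all genes), for 4 from day 7 to 14 (5.41% against 0.875%) and for 3 from day 14 to 21 (4.05% against 1.38%). From day 7 to 14 it changed by -1.92 for *ITGB5* (standard error 0.34, adjusted p = 0.00785) and by 1.61 for *ITGB8* (standard error 0.30, adjusted p = 0.0133). The neuron markers moved in the same days: 4 of 5 measured were higher in *ROR2* KD cells on day 14 (0.934% of all genes were) and 1 on day 21 (2.16% of all genes). Their mean log2 level was 14.37 to 14.43 on *ROR2* KD and 12.89 to 13.09 on control arrays of day 14, and 15.72 to 15.86 against 14.91 to 15.15 on day 21. On day 21 the mean log2 level of 6 neural progenitor markers was 13.78 to 13.98 on *ROR2* KD and 12.55 to 12.74 on control arrays, with a median difference of -0.69 over the markers. *PAX6* was called higher (15.51, 15.61 and 15.65 against 5.03, 5.29 and 4.72), *NES* was called lower by 1.08, and the higher mean rests on *PAX6*. The part of neuron and progenitor markers in the differences of day 14 and day 21, those of collagens and laminins included, was not tested. *ITGAV* differed by -0.84 on day 21, less than 2-fold (adjusted p = 0.0257).

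**Figure D4:**
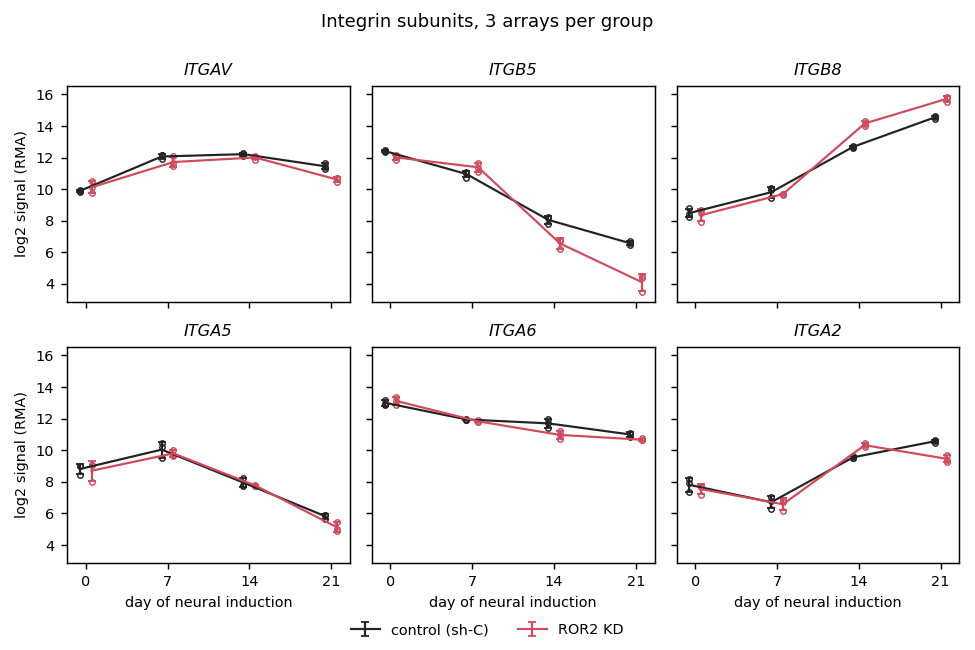
Log2 signal of 6 integrin subunits by day in control (black) and *ROR2* KD cells (red). Circles are single arrays, and lines join the means with the SD over 3 arrays as bars. *ITGB5* falls and *ITGB8* rises in both lines, with *ROR2* KD cells lower for *ITGB5* and higher for *ITGB8* on days 14 and 21, and the lines cross for *ITGA2* between days 14 and 21.

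*ITGA2*, the alpha chain of a collagen receptor, rose late. Its arrays of days 0 and 7 lay under background in both lines. It read 6.78, 7.05 and 6.29 on day 7 and 9.48, 9.66 and 9.50 on day 14 in control cells (2.84, adjusted p = 3.65e-08), and 6.74, 6.14 and 6.85, then 10.32, 10.18 and 10.47 in *ROR2* KD cells (3.75, adjusted p = 2.26e-10). On day 14 the *ROR2* KD arrays were thus above the control arrays, by 0.78, which was not called (adjusted p = 0.304). On day 21 they were below them, with 9.70, 9.27 and 9.39 against 10.64, 10.60 and 10.47 (-1.11, standard error 0.25, adjusted p = 0.0116). The difference of the contrast between these days was -1.89 (standard error 0.35, adjusted p = 0.00692). The call of day 21 was lost without control replicate 1 or *ROR2* KD replicate 2 of that day (adjusted p up to 0.0744), in the fit of that day's arrays alone and without the 4 arrays with the highest medians (up to 0.148 over the alternatives). The rise of 1.02 in control cells from day 14 to 21 was lost without control replicate 1 or 3 of day 14 or replicate 1 of day 21 (adjusted p up to 0.0555) and was less than 2-fold after median centring (0.92).

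Other receptor subunits were lower late than early in both lines, without a called difference between them. *ITGB1*, the common beta1 chain, read 16.95 ± 0.07 on day 0 and 14.39 ± 0.08 on day 21 in control cells, and 16.91 ± 0.12 and 14.50 ± 0.15 in *ROR2* KD cells, and its differences between the lines were -0.26 to 0.11 (standard error 0.17). Its step to day 7 was called in both lines (-1.12 and -1.28). *ITGA6*, its laminin-binding partner, fell by 1.05 in control cells by day 7, from 13.01 ± 0.18, and by 1.28 in *ROR2* KD cells, from 13.12 ± 0.26. Its later steps were less than 2-fold. On day 14 *ITGA6* read 11.39, 11.99 and 11.71 in control and 11.19, 10.73 and 10.98 in *ROR2* KD cells, without overlap but not called. *ITGA5*, the fibronectin receptor chain, first rose by 1.23 and 1.10 and then fell at both later steps, from 10.04 ± 0.51 on day 7 to 5.82 ± 0.15 on day 21 (control) and from 9.80 ± 0.21 to 5.12 ± 0.31 in *ROR2* KD cells. Its arrays of days 0 and 21 lay under background in both lines. On day 21 it read 5.91, 5.89 and 5.65 in control and 5.47, 4.86 and 5.04 in *ROR2* KD cells, without overlap but not called.

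Between the lines, 0 members were called on day 0 by limma (0.0268% of all genes were higher and 0.0535% lower), with 7 members at an unadjusted p under 0.05 and 0 called by the methods' t-test. The share of all genes at that unadjusted p was not counted, so the 7 cannot be set against it. After *COL14A1* on day 7, day 14 had 1 member higher in *ROR2* KD cells (1.35% against 0.934% of all genes) and 6 lower (8.11% against 0.77%). On day 21, 3 were higher (4.05% against 2.16%) and 5 lower (6.76% against 2.51%). By family, the 41 collagens gave 0 higher and 4 lower on day 14 and 1 higher and 3 lower on day 21. The 8 laminins gave 1 lower on day 14 and 1 higher on day 21, and the 25 integrins 1 higher and 1 lower on day 14 and 1 higher and 2 lower on day 21. The members' median on these days was -0.18 and -0.16 (all genes -0.03 and -0.02). The groups did not overlap for any of these calls, which adds little to a call. Called or not, the groups were apart for 30 of the 74 members on day 14 and 29 on day 21. The matching share over all genes was not counted. The fourth call of day 14 among collagens was *COL9A3*, with 3.26, 2.52 and 3.17 against 4.35, 4.42 and 4.08, under background (-1.30, standard error 0.28, adjusted p = 0.0228). It was lost when any 1 of 5 of that day's arrays (all but *ROR2* KD replicate 1) was left out. The count of 7 fell to 4 without control replicate 3 or *ROR2* KD replicate 2 or 3 of day 14.

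**Figure D5:**
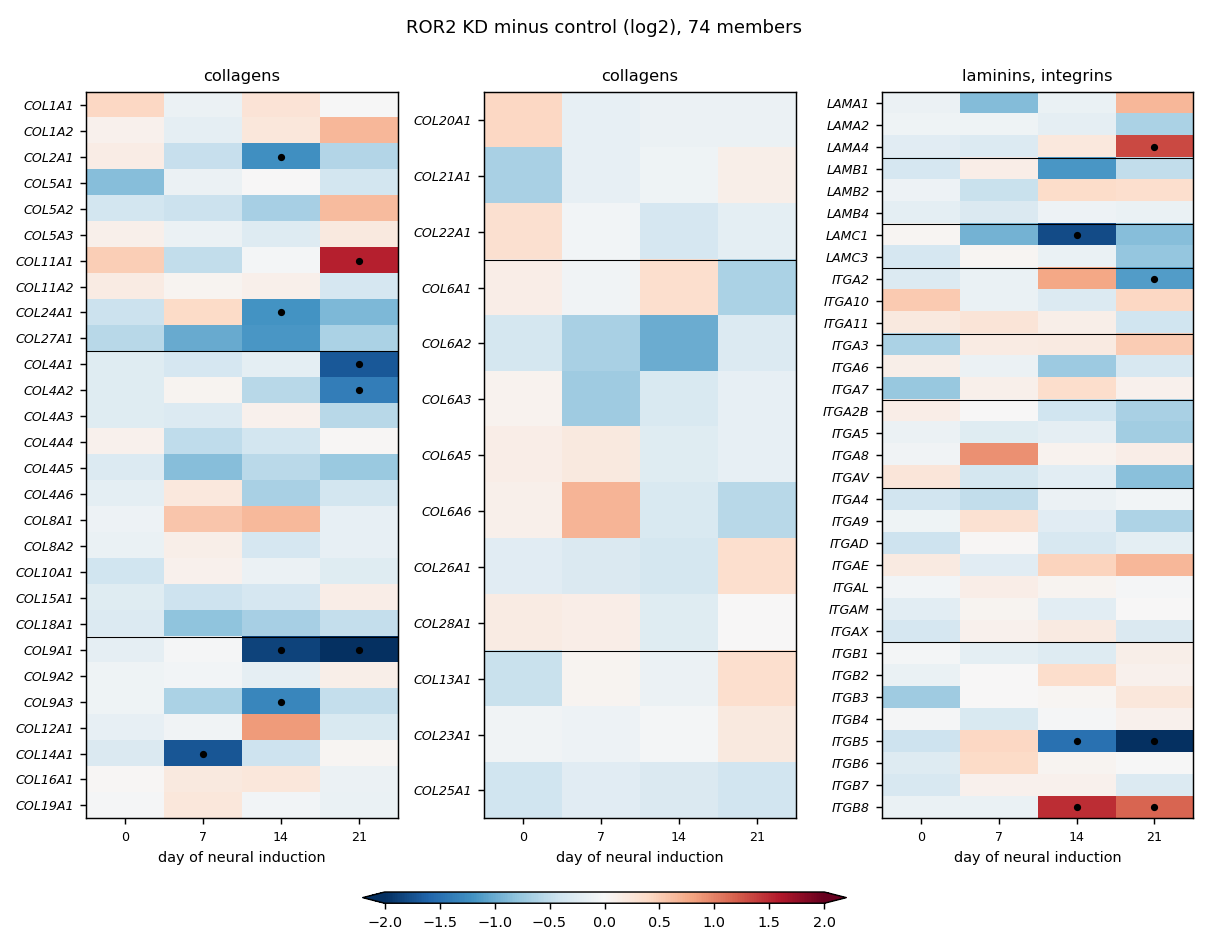
Log2 difference between *ROR2* KD and control cells for every member on each day. Red is higher and blue lower in *ROR2* KD cells, colours end at 2 and -2, dots mark called differences, and lines separate the families. Dots appear from day 7 on, and *COL9A1*, *ITGB5* and *ITGB8* carry them on both day 14 and day 21.

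Of the enzymes that modify and cleave collagen chains, *PLOD2* and *P3H2* differed between the lines by more than any collagen, laminin or integrin gene, without a test between these groups. Of 26 measured genes of collagen biosynthesis, 1 was higher and 1 lower in *ROR2* KD cells on day 14 (0.934% and 0.77% of all genes were), and 1 was higher and 2 lower on day 21 (2.16% and 2.51% of all genes). *PLOD2*, the lysyl hydroxylase of collagen telopeptides, read 12.85, 12.80 and 12.81 in control and 9.27, 8.62 and 9.27 in *ROR2* KD cells on day 21. It was lower by 3.77 (13.6-fold; standard error 0.23, adjusted p = 9.93e-11), after 1.29 on day 14. *P3H2*, a prolyl 3-hydroxylase that acts on type IV collagen, read 4.09, 4.41 and 3.99 in control, all under background, and 8.68, 8.43 and 7.93 in *ROR2* KD cells on day 21. It was higher by 4.18 (adjusted p = 5.23e-09), after 2.36 on day 14. On day 0 it already read higher by 1.35, without overlap, which was not called (adjusted p = 0.125). *ADAMTS3*, which removes the N-terminal propeptide of type II procollagen, was lower by 1.81 on day 21, under background.

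Over time, 11 of these 26 genes fell and 2 rose in control cells by day 7 (10 and 2 in *ROR2* KD cells). Over this step 17.4% of all genes fell and 10.2% rose in control cells, and 14.8% and 10.9% in *ROR2* KD cells. The falls included *PCOLCE*, an enhancer of procollagen cleavage, at -3.36 and -3.19 and the prolyl isomerase *PPIB* at -3.53 and -3.50. *SERPINH1*, the chaperone of procollagen (named after its values were seen), fell at every step in both lines, by 2.05, 2.23 and 2.75 in control and by 1.82, 3.34 and 2.25 in *ROR2* KD cells. Of 23 measured genes of the integrin adhesion complex, 11 fell and 1 rose by day 7 in control cells and 8 fell and 1 rose in *ROR2* KD cells (all genes as above). The kindlin *FERMT1*, an epithelial activator of integrins, fell by 6.17 and 6.61, the adaptor *BCAR1* by 4.22 and 3.31, and *ZYX* by 3.28 and 3.02, while the tensin *TNS3* rose by 2.48 and 2.34. Between the lines, only *TNS3* was called, on day 21 (-1.51, adjusted p = 0.00026), 1 of the 23 against 2.51% of all genes that were lower. Of 12 measured other receptors of collagen and laminin, 2 were lower in *ROR2* KD cells on day 21 (2.51% of all genes were) and 0 were called on the earlier days. These were *SGCE* (epsilon-sarcoglycan) and the proteoglycan *SDC1*, lower by 1.15 and 1.27. *SDC4* fell by 4.01 and 3.85 by day 7, and the collagen receptor kinase *DDR2* by 2.96 and 2.36.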

How the data were processed

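Clariom D arrays of 24 RNA samples were analysed. The deposited values are log2 signals, which the authors obtained by robust multi-array averaging (RMA) in Transcriptome Analysis Console: background was corrected, arrays were brought to one distribution and probes combined into 1 value per transcript cluster. They were used as deposited. The genome build is not given in the sources used here. Of the 138745 probe sets, the 2995 controls of the array were not tested. Precision depends on the number of arrays.

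With limma 3.58.1 (R 4.3.3), the means of 8 groups were estimated from all 24 arrays and all 135750 clusters (16 residual and 6.36 prior degrees of freedom), with two-sided tests and Benjamini-Hochberg adjustment over all clusters. The members and lists were chosen with earlier results of these data known. Named are members called between the lines without overlap (up to 8 highest and 8 lowest a day), the 3 largest rises and falls of each step and line, partner chains, and up to 4 called genes of each related list. Others were named after their values were seen, to complete a count or family. All 74 members matched RefSeq, and 0 pairs of arrays were identical. The procedure was also run on simulated arrays with independent noise and no change between days, unlike these arrays. Its outcome is not used here. Alternatives were a fit of only the arrays compared, the replicate number as a block, centring on medians, quantile normalization, a trended or robust variance, weights for arrays, the unpaired t-test of the methods, leaving out dim clusters, the mean of a gene's clusters, other thresholds and leaving out each array. Protein sequences were not analysed here.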

Additional observations from a re-analysis of the deposited data

Results flagged for a closer look

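The difference between *ROR2* KD and control cells changed between successive days for 7 members (limma, difference of the contrasts, adjusted p under 0.05 and above 2-fold). Between days 0 and 7 limma called 0 members, with 7 at an unadjusted p under 0.05. How many of all genes reach that unadjusted p was not counted.

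From day 7 to day 14 it changed by -1.83 for *COL9A1* (adjusted p = 0.000962), -1.92 for *ITGB5* (adjusted p = 0.00785), 1.61 for *ITGB8* (adjusted p = 0.0133) and -1.59 for *COL24A1* (standard error 0.34, adjusted p = 0.0422). From day 14 to day 21 it changed by -1.89 for *ITGA2* (adjusted p = 0.00692), 1.59 for *COL11A1* (adjusted p = 0.0143) and 1.30 for *COL5A2*, a chain of fibrillar type V (standard error 0.28, adjusted p = 0.0336). *COL5A2* read 7.32 ± 0.08 in control and 6.65 ± 0.10 in *ROR2* KD cells on day 14 and 4.78 ± 0.19 against 5.41 ± 0.08 on day 21, under background throughout. The values of *COL9A1*, *ITGB5* and *ITGA2* held their calls without any single array. That of *COL24A1* was lost without any 1 of 15 arrays, namely those of day 14, replicates 2 and 3 of days 0 and 7 in both lines and control replicate 3 of day 21 (adjusted p up to 0.163). That of *COL5A2* was lost without any 1 of 11, namely those of days 14 and 21 except control replicate 3 of day 21 (adjusted p up to 0.12). *COL11A1* was lost without control replicate 2 of day 14 or 3 of day 21 (adjusted p up to 0.0579). *ITGB8* was lost without control replicate 1 or 2 of day 7 or *ROR2* KD replicate 3 of day 14 (adjusted p up to 0.0602). Without the 4 arrays with the highest medians, *COL24A1*, *COL5A2*, *ITGB8* and *COL11A1* were not called (adjusted p up to 0.295 over the alternatives).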

How the results depend on the processing

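No value changed its direction. Of 56 calls of named members, 32 were kept under the alternatives that could be run for them and each left-out array. The dim filter drops dim members, and changes of the difference have no t-test. The methods' t-test gave 0, 0, 0 and 1 members called between the lines on days 0, 7, 14 and 21 (the last *COL9A1*), and 8 and 13 for control cells from day 7 to 14 and 14 to 21, and 14, 9 and 9 for the steps of *ROR2* KD cells. A fold change above 4 gave 0, 0 and 2 on days 7, 14 and 21, 11, 8 and 10 for the steps of control and 10, 7 and 7 for those of *ROR2* KD cells. The filter on dim clusters kept 23 members and gave 0 on day 7 and 16 and 15 for the step from day 0 to 7 in control and *ROR2* KD cells. Only the arrays compared gave 0 on day 7 and 4 on day 21. Median centring, quantile normalization, a fold change above 1.5 and the adjusted p alone each gave 2 on day 7. Without the 4 arrays with the highest medians, an alternative chosen after seeing the data, 0 were called on day 7 and 12 for *ROR2* KD cells from day 7 to 14. Leaving out each array in turn gave 0 to 0, 1 to 1, 4 to 8 and 7 to 10 members on days 0, 7, 14 and 21. For the steps it gave 25 to 31, 11 to 15 and 19 to 23 in control and 25 to 31, 15 to 19 and 20 to 24 in *ROR2* KD cells. Median centring shifted all values by 0.12 at most between the lines and 0.15 between days.

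With the replicate number as a block, 0, 1, 7 and 8 members were called between the lines, 28, 13 and 23 in the steps of control and 26, 18 and 22 in those of *ROR2* KD cells. Of the named calls, the block ended that of *COL24A1* for the change of the difference from day 7 to 14. Residuals of same-numbered arrays correlated at -0.02 to 0.22, over 0.1 in 1 of 12 pairs, so that the numbers were not taken as pairing. Signal under background limits the values of *COL14A1*, *COL21A1*, *COL24A1*, *COL27A1*, *COL9A3*, *COL4A1*, *COL5A2*, *COL6A2*, *COL6A3*, *LAMA4* and *ITGA7*. On their low days it also limits those of *COL4A2*, *COL4A5*, *COL4A6*, *COL1A2*, *COL2A1*, *COL9A1*, *COL11A1*, *LAMB1*, *ITGA2*, *ITGA5*, *ITGB5* and *ITGB8*.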
